A study of Homo sapiens with 2 samples.

Results

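The AP-1 and immediate early genes examined here were FOS, FOSB, FOSL2, JUN, JUNB, JUND, ATF3, EGR1, NR4A1 and NR4A2, taken as every probe that the deposited annotation assigns to one of these 10 symbols. They were read by 14 of the 58199 probes on the array, and the 10 genes stand among 34757 gene symbols. A375, an established human melanoma cell line, was transfected with an siRNA against THOC2 or with the control siRNA NC, and RNA was taken 48 h later. An siRNA is a short duplex RNA that directs the degradation of a matching mRNA, and THOC2 is a subunit of the THO complex, which couples transcription to mRNA export. Each condition was read by 1 culture on 1 one-colour array, so neither the variation of cultures nor a test of the conditions could be had, and each difference below is a difference between these arrays. The methods list 4 siRNAs against THOC2 without saying which was hybridized. The labels give DMEM with serum and detachment with trypsin before RNA isolation, while the methods give RPMI medium with serum.

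Titles and descriptions of the samples were used for the groups, since the source fields name the opposite condition. Both THOC2 probes were lower on the array so assigned to the THOC2 siRNA, with log2 fold changes of -1.42 and -0.63. Of 10 melanocyte and melanoma markers, 7 were well above background on both arrays, among them SOX10 and MITF, and PMEL and TYR were on neither. MLANA was well above background with the THOC2 siRNA alone, in 1 of its 2 probes, where its signal was 18.7. DCT, counted among the 7, gave signals as near the detection limit on both arrays as the markers of other cells below. AXL, NGFR and EGFR, which mark a less differentiated melanoma state, were measured on both arrays. None of 3 fibroblast markers was well above background. Of the defining markers of other cells, PTPRC, CD3E, CD14 and PECAM1 gave signals from 16.2 to 37.4 on both arrays, near the detection limit (the lowest signal that the scanner software marked as well above background, 14.7 with NC and 15.3 with the THOC2 siRNA), and the keratin gene KRT14 gave 83.9 with NC and 104 with the THOC2 siRNA.

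AP-1 is a pair of bZIP proteins, usually one of the FOS family with one of the JUN family, that binds DNA through its basic region and pairs through a leucine zipper. Many of the genes for these proteins are immediate early genes, switched on within minutes of a growth factor, stress or cAMP signal. Factors that already wait in the cell, such as SRF with ELK proteins and CREB, switch them on. In melanoma with active ERK signaling, AP-1 and EGR1 are known outputs of that pathway. The study asked which genes depend on THOC2 and followed the cAMP pathway, whose factor CREB binds the sequence TGACGTCA or its shorter form TGACG.

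RefSeq promoters (GRCh38.p14, from 250 bases before to 50 bases after the start) were matched by symbol for 9 of the 10 genes, which have 11 promoters, and NR4A2 had no entry. The motif TGACG, searched on both strands, was present in 7 of the 11 promoters, those of FOS, FOSB, FOSL2, JUN, JUNB, JUND and EGR1, and in 24.6% of all 35116 promoters. The full TGACGTCA, which contains TGACG on each strand, was present in JUND and in 1.85% of all promoters. The variant TGACATCA was present in JUN and ATF3 and in 2.61% of all promoters. The CArG box, the element bound by SRF, was present within this window in EGR1 and in 1.29% of all promoters. Elements more than 250 bases before the start, in FOS or any other gene, were not searched. These matches describe letters in a window and show no binding. The stretches below are shown because they hold elements of the kinds through which the signals above are known to act. Capitals mark TGACG, TGACGTCA, TGACATCA and the CArG box on either strand, and each stretch reads 5′ to 3′ along its gene.
FOS, chr14:75278728-75278827, plus strand: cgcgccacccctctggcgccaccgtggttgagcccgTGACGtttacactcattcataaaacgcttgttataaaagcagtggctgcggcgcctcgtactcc
JUN, chr1:58784078-58784177, minus strand: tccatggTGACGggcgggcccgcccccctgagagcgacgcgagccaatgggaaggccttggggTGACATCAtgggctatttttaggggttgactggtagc
JUND, chr19:18281683-18281832, minus strand: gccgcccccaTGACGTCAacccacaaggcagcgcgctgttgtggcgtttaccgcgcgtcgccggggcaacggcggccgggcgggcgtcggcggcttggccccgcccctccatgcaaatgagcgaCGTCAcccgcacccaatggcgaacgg
EGR1, chr5:138465329-138465448, plus strand: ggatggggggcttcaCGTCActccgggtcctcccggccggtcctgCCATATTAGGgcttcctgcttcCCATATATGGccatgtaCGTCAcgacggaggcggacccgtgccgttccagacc

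The probes are 60 bases long and each was printed on 1 spot per array. Sequences are given for probes of JUND and NR4A2, whose gene values as reported lay farthest from 0, and of ATF3, whose probes differed in sign. The ATF3 sequences shown are of probes 1 and 3, both below 0, and do not include the probe above 0. Positions are on hg19, from the deposited annotation. Exons and untranslated regions were not analysed here, and the other probes are given by position alone.
ATF3 probe 1, chr1:212788502-212788561, plus strand: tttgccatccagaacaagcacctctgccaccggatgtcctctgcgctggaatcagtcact
ATF3 probe 3, chr1:212792837-212792896, plus strand: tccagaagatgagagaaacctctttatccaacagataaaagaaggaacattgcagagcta
JUND, chr19:18391371-18391430, minus strand: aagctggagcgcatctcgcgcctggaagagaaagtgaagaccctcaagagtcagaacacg
NR4A2 probe 2, chr2:157182256-157182315, minus strand: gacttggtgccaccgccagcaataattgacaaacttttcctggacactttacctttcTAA
The capitals in the NR4A2 sequence mark a stop codon that closes the only reading frame open along the probe.

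Each of the 14 probes was well above background with NC and with the THOC2 siRNA, and none had an outlier flag. No probe passed 2-fold in either direction. Among the 25345 probes compared, those well above background on at least 1 array, 6.26% passed 2-fold (3.33% lower and 2.93% higher with the THOC2 siRNA). Among the 22208 probes well above background on both arrays it was 1.19% (0.365% lower and 0.829% higher), so 0 of 14 is close to the background and is not a result about these genes. At 1.5-fold 1 member probe passed, where 13.8% of all probes compared did. That share includes probes measured on 1 array alone, while every member probe was measured on both. A 1.5-fold share over probes on both arrays was not taken, so no conclusion about the members is drawn from 13.8%. The processed signal, which is the brightness of a spot after background subtraction by the scanner software, was lower on the THOC2 siRNA array for 11 of the 14 probes. The arrays as a whole differed in the same direction, since the 75th percentile of the log2 signal was 6.62 with NC and 6.31 with the THOC2 siRNA. Each log2 fold change below is THOC2 siRNA minus NC after each array was reduced by that percentile, and over all genes compared its median was 0.023. The technical SD beside it is the spread of the log2 fold change over repeated spots of other probes of like signal within these arrays, and it leaves out any difference between cultures. The scanner software's own error of the member probes, which includes a 10% term set in its protocol, corresponds to an SD of 0.20 to 0.38 on the log2 scale.

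**Figure D1:**
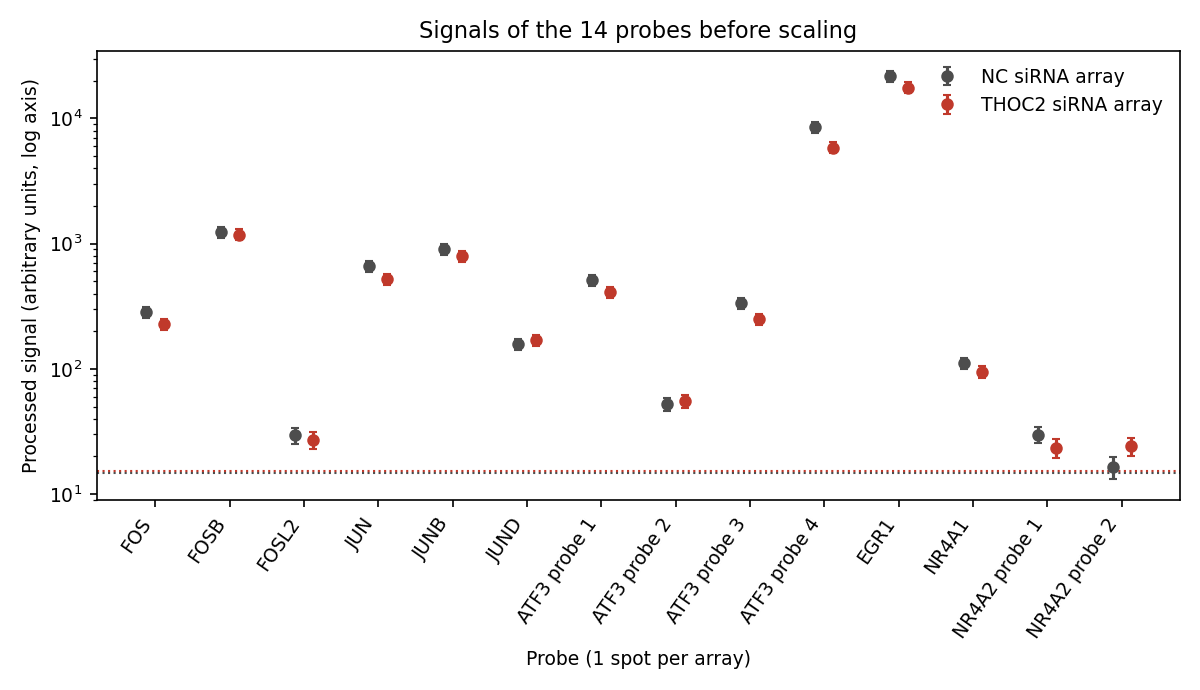
Processed signal of each of the 14 probes (log axis, arbitrary units) on the NC siRNA array and the THOC2 siRNA array, with the scanner software's error as bars and dotted lines at the detection limit of each array (14.7 and 15.3). Signals of different probes are not comparable as levels of their genes, and within a probe the THOC2 siRNA array was lower for 11 of 14.

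The FOS-type genes encode the partners that cannot pair with themselves and need a JUN protein. FOS (chr14:75748214-75748273) gave a signal of 286 with NC and 227 with the THOC2 siRNA, a log2 fold change of -0.025 (technical SD 0.097). The arrays did not differ for FOS by more than that technical spread. FOSB (chr19:45978205-45978264) had 1238 with NC and 1183 with the THOC2 siRNA, a log2 fold change of 0.24 (technical SD 0.046). The signal itself was slightly lower with the THOC2 siRNA, and the value lay above 0 only after the scaling. FOSL2 (chr2:28637175-28637234) had 29.6 with NC and 27.0 with the THOC2 siRNA, a log2 fold change of 0.18 (technical SD 0.23). The median of these 3 genes was 0.18.

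The JUN-type genes encode the partners that pair with FOS proteins or with one another, and JUND is known as the member that resting cells also express. JUN (chr1:59246511-59246570) gave a signal of 664 with NC and 518 with the THOC2 siRNA, a log2 fold change of -0.050 (technical SD 0.073). JUNB (chr19:12902998-12903057) had 904 with NC and 796 with the THOC2 siRNA, a log2 fold change of 0.13 (technical SD 0.066), and centring on the surrounding block of spots reduced it to 0.024. JUN and JUNB as reported lay within 2 technical SDs of 0, and JUN stood at -0.12 with that centring and at -0.15 with normexp. JUND, the gene with both forms of the CREB motif in its promoter, had 158 with NC and 170 with the THOC2 siRNA, a log2 fold change of 0.41 (technical SD 0.10). At 1.33-fold its value was close to the mean of the NR4A2 probes, also 0.41, and the order of these genes changed with the setting (0.26 for JUND and 0.36 for NR4A2 with centring by block). Its spot lay in a block of the array where 12.4% of the compared probes were at least 2-fold higher with the THOC2 siRNA, against 2.93% over the array, and with centring on that block its value was 0.26. The part of the block in the JUND value beyond this was not tested.

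ATF3 encodes a stress-induced bZIP repressor of the ATF family and has 4 probes, numbered here along the chromosome. Probe 1 gave a signal of 514 with NC and 409 with the THOC2 siRNA, a log2 fold change of -0.021 (technical SD 0.078). Probe 2 (chr1:212792519-212792578) had 52.4 and 55.2, a log2 fold change of 0.39 (technical SD 0.16). Probe 3 had 333 and 251, a log2 fold change of -0.10 (technical SD 0.083). Probe 4 (chr1:212793856-212793915) had 8508 and 5853, a log2 fold change of -0.23 (technical SD 0.042). The probes of ATF3 thus spread over 0.62 on the log2 scale. Probe 4 was the only member probe lower by more than 2 technical SDs, at 1.17-fold, and the dimmest of the 4, probe 2, was the one above 0. Averaged, the gene stood at 0.0089, and it was below 0 under 7 of 11 alternatives, down to -0.23 when the brightest probe stood for the gene. The other alternatives concern only detection or outlier flags and left its value nearly unchanged.

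EGR1 encodes a zinc-finger factor and is a standard readout of ERK and SRF activity. Its probe (chr5:137804891-137804950) gave a signal of 21708 with NC and 17680.5 with the THOC2 siRNA, a log2 fold change of 0.014 (technical SD 0.036). Its difference was thus under the technical spread, and over the alternatives it ran from -0.10 with the authors' normalized values to 0.040 with centring by block. The NR4A genes encode orphan nuclear receptors that cAMP induces. NR4A1 (chr12:52453226-52453285) had 112 with NC and 95.2 with the THOC2 siRNA, a log2 fold change of 0.081 (technical SD 0.14). NR4A2 probe 1 (chr2:157181727-157181786) had 29.8 and 23.5, a log2 fold change of -0.035 (technical SD 0.23). NR4A2 probe 2 had 16.5 and 24.1, a log2 fold change of 0.86 (technical SD 0.23). The probes of NR4A2 lay 0.89 apart, and probe 2, which had the largest fold among the 14 (1.81), had an NC signal just above the detection limit of 14.7. With normexp background correction probe 2 was at 0.31. That setting adds an offset of 50 to every signal, which shrinks differences between signals this dim, so it does not test the probe. For probes this dim the technical SD rests on 15 repeated probes with mean log2 signals from 3.78 to 6.57, and among all repeated probes 4 were under 5.

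**Figure D2:**
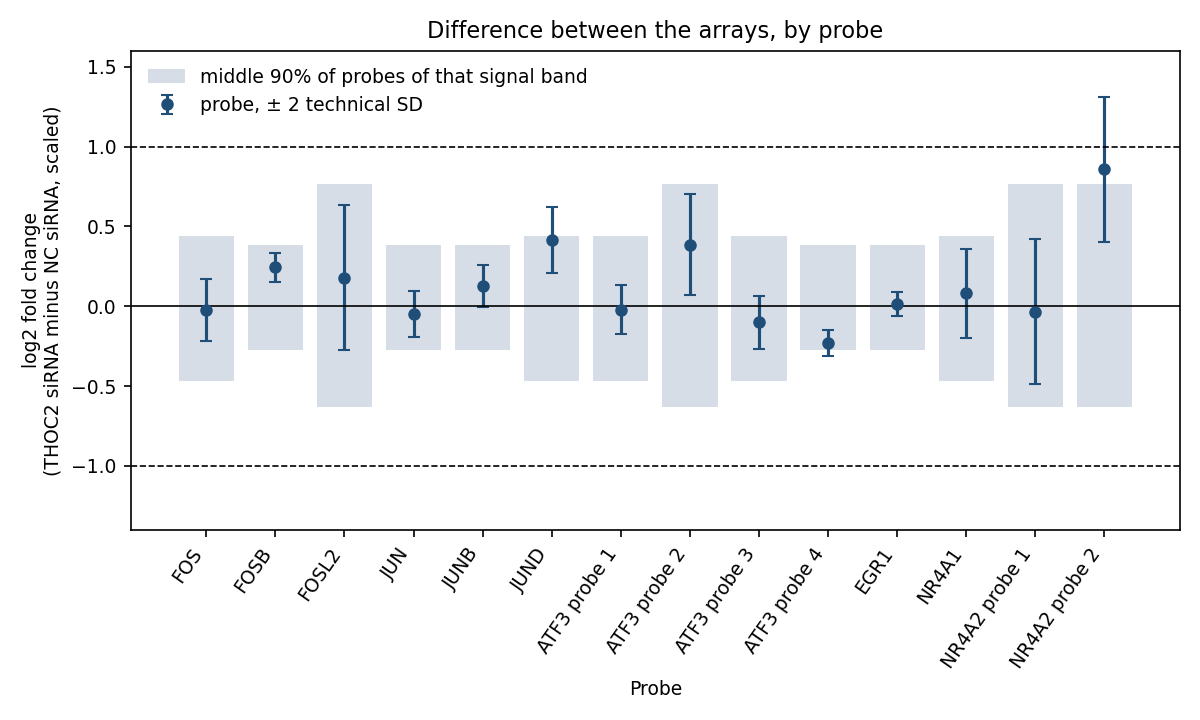
Scaled log2 fold change of each probe, THOC2 siRNA minus NC siRNA, with bars of 2 technical SDs and dashed lines at 2-fold. Grey boxes run from the 5th to the 95th percentile of the probes well above background on both arrays. Each box takes the probes in the same band of signal (mean log2 signal under 6, 6 to 9, over 9). Only NR4A2 probe 2, at 0.86, lay outside its box, which ends at 0.76.

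Set beside all probes of like signal, the 14 were not set apart in size. Of the 5 member probes with a mean log2 signal over 9, the log2 fold changes ran from -0.23 to 0.24, and the 5th and 95th percentiles of 7374 such probes were -0.28 and 0.38. For the 5 member probes between 6 and 9 they ran from -0.10 to 0.41, against percentiles of -0.47 and 0.44 over 8651 probes. For the 4 under 6 they ran from -0.035 to 0.86, against -0.63 and 0.76 over 6183 probes. In all, 4 probes were higher by more than 2 technical SDs (FOSB, JUND, ATF3 probe 2 and NR4A2 probe 2), 1 was lower (ATF3 probe 4), and 9 were within it. That count was not made over all probes, so it is not a result about these genes. The scanner software's error gave larger SDs: 0.20 for FOSB and ATF3 probe 4, 0.21 for JUND, 0.24 for ATF3 probe 2 and 0.38 for NR4A2 probe 2. By that error only NR4A2 probe 2 lay more than 2 SDs from 0. Among the probes of each band the SD of the log2 fold change was 0.22 over 9, 0.29 between 6 and 9 and 0.44 under 6. The median technical SDs there were 0.049, 0.083 and 0.28. As genes, 8 of the 10 lay above 0 and 2 below, a split that became 6 and 4 with quantile normalization, median scaling, lowess centring, normexp, the authors' normalized values or the brightest probe of each gene, and 7 and 3 with centring by block. Of all 17514 genes compared, 9350 lay above 0 and 8164 below. The median of the 10 genes was 0.10, against 0.023 for all genes compared.

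**Figure D3:**
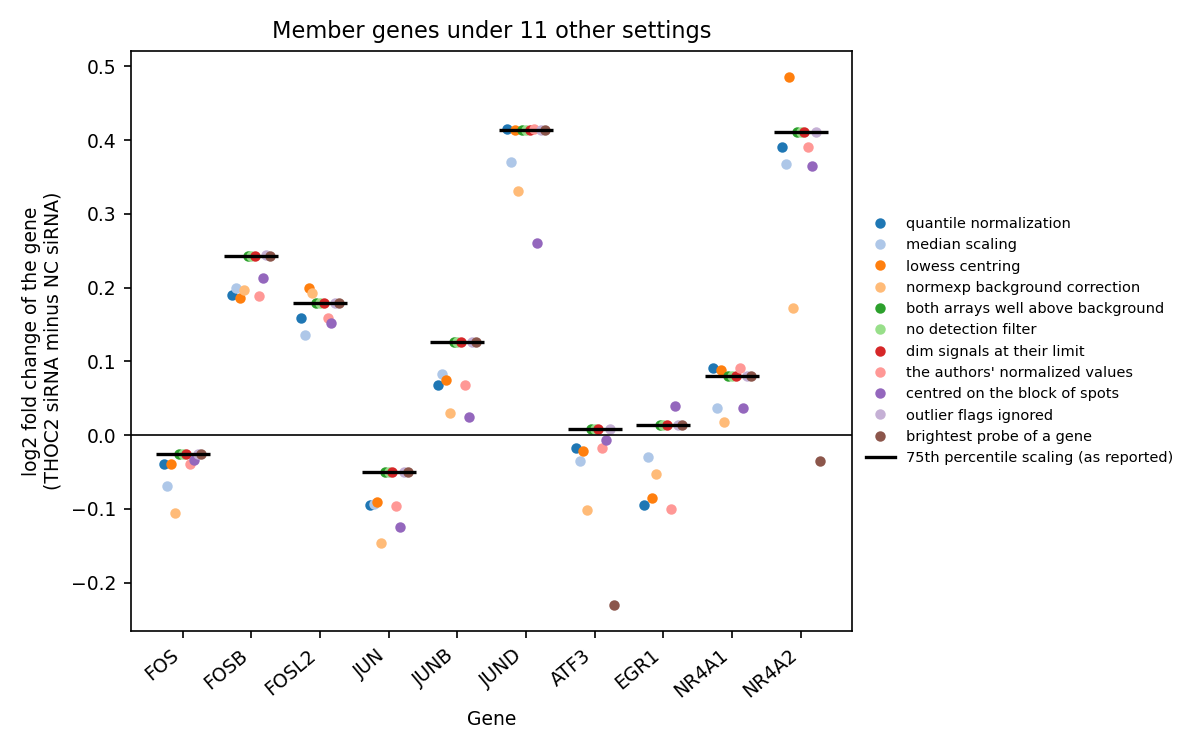
Log2 fold change of each of the 10 genes, THOC2 siRNA minus NC siRNA, as reported (black lines) and under 11 other settings (points). FOS and JUN stayed below 0 and FOSB, FOSL2, JUNB, JUND and NR4A1 above 0 in all of them, while ATF3, EGR1 and NR4A2 changed sign in at least 1. Settings that change only the detection filter repeat the reported values, since every member probe was well above background on both arrays. Ignoring outlier flags hardly moves them, since no member probe had a flag.

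Genes of the same pathway were taken from 4 lists, and a gene was called at 2-fold in the mean of its compared probes. Over all 17514 genes compared, 3.34% were lower and 2.96% higher by 2-fold, and 9350 lay above 0 and 8164 below. Those shares include genes measured on 1 array alone. Of the 15648 genes with probes well above background on both arrays, 55 were lower and 131 higher. Of 16 other AP-1 and related bZIP genes, 15 were compared and none passed 2-fold, with 9 above 0, 6 below and a median of 0.065 (-0.037 with normexp). Among the values farthest from 0 were those of CREB1, the cAMP-responsive factor itself, at -0.37 and of ATF7 at -0.27. The 3 CREB1 probes were at -0.54, -0.49 and -0.064, and the last 2 overlap in sequence. Of 34 other immediate early genes, which include DUSP1, IER2 and BTG2, all were compared and none passed 2-fold, with 22 above 0, 12 below and a median of 0.077 (-0.021 with normexp). KLF2 and KLF4, zinc-finger factors, were at 0.49 and 0.42, and DUSP2, a phosphatase that acts on ERK, was at 0.38.

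Of the 20 kinases and factors that induce these genes, all were compared, 17 lay above 0 and 3 below, and the median was 0.22, or 0.095 with normexp. ELK1, an SRF partner that ERK phosphorylates, stood at 0.84, from probes at 1.18 (a signal of 64.6 with NC and 118 with the THOC2 siRNA) and 0.49. The stress kinase gene MAPK14 was at 0.67 and MAP2K7, a kinase upstream of JNK, at 0.36. RPS6KA5, a kinase that phosphorylates CREB and is named here after its value was seen, was the 1 gene past 2-fold, as lower. That call rests on 2 probes not well above background with the THOC2 siRNA, lower by at least 1.13-fold and at least 1.19-fold, and its probe measured on both arrays was at 0.20.

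Among 20 AP-1 target genes, 19 were compared, 16 lay above 0 and 3 below, and the median was 0.18, or 0.082 with normexp. IL11, a cytokine of the IL6 family, gave a signal of 13659 with NC and 4981 with the THOC2 siRNA, a log2 fold change of -1.15 (technical SD 0.042). IL6 had 244 and 432, a log2 fold change of 1.13 (technical SD 0.080), so these related cytokines lay on opposite sides. MMP9, a gelatinase, had 14249 and 20712, a log2 fold change of 0.85 (technical SD 0.040). MMP3, a stromelysin named here after its value was seen, was not well above background with NC and had 60.2 with the THOC2 siRNA, at least 5.09-fold higher. The list as a whole thus held 1 lower and 2 higher genes of 19 at 2-fold, against the 3.34% and 2.96% of all genes. Over probes well above background on both arrays it held 1 lower and 1 higher of 18 genes. Of all 15648 such genes, 55 were lower and 131 higher, and no test was made.

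**Figure D4:**
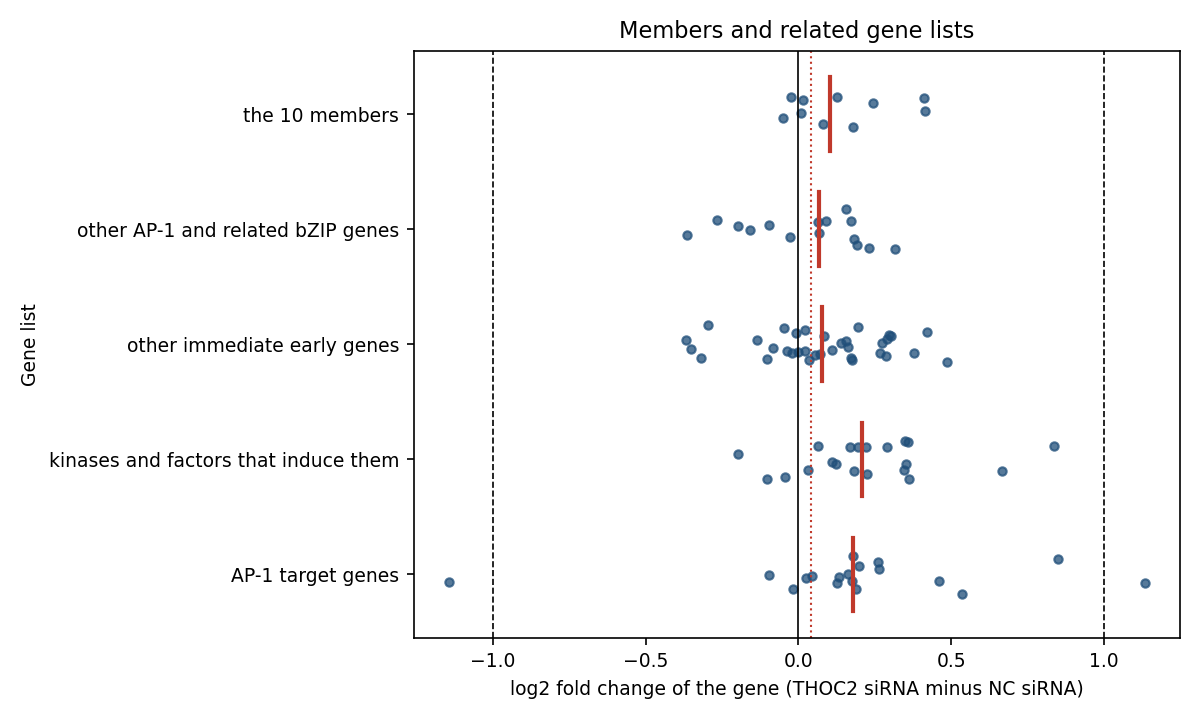
Log2 fold change of each gene, THOC2 siRNA minus NC siRNA, over its probes well above background on both arrays, for the 10 members and 4 lists, with the list median as a red line, the median of all such genes (0.040) as a dotted line and 2-fold as dashed lines. IL11 and IL6 are the only points beyond 2-fold, at -1.15 and 1.13.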

How the data were processed

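Total RNA of A375 cells was measured on 1 Agilent SurePrint G3 Human v3 array per condition. The authors deposited the scanner output, an intensity per spot made with Feature Extraction 10.7.1.1 (per the submitters' processing notes), which corrects trends over the array and subtracts the background, together with marks of 0 or 1 for outlier, saturated and well-detected spots. They also deposited log2 values normalized in GeneSpring, whose sorted values differ between the arrays by at most 0.00079. A deposited table of the authors' own fold changes was not used.

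Control spots and outlier spots (230 with NC and 253 with the THOC2 siRNA, none saturated) were left out. Log2 processed signals of a probe's spots were averaged and reduced by the array's 75th percentile. A probe was compared where either array had it well above background, a gene is the mean of its compared probes, and the call is 2-fold. Where only 1 array measured a probe, the fold is a bound against the higher of the dim signal and that array's detection limit. The technical SD is the root mean square over the 15 repeated probes of nearest signal, out of 287. Precision is limited by the number of arrays, 1 per condition, and the Student's test of the methods could not be run. Blocks were 16 down and 8 across. The comparison was tested on simulated data whose changes all passed 2-fold and lay in brighter probes. It did not cover differences as small as those of the members, or signals as dim as their dimmest. Python 3.11.15, numpy 2.4.6, pandas 2.3.3, statsmodels 0.14.6 (lowess, span 0.3), R 4.3.3 and limma 3.58.1 (normexp, offset 50) were used.

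The members and lists were chosen with earlier results of these data known. Named genes are the 10 members, THOC2, and from each list the 3 genes with the largest value on both arrays and those past 2-fold there; others are marked as named after their values were seen, and 1 gene that the rule names is not reported here. ACTB, the RT-qPCR reference, stood at 0.43 and 0.25 in its probes.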

Additional observations from a re-analysis of the deposited data

How the results depend on the processing

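No paired analysis was possible because each condition was hybridized once, on 1 array. No member probe was lower by 2-fold in any of 11 alternatives. None was higher except at a fold of 1.5, where 1 of 14 passed (NR4A2 probe 2). The share of all probes compared was 13.8% there, but it includes probes measured on 1 array alone, which the members are not. The median of the 10 genes lay above 0 in all 11, from 0.024 (normexp) to 0.10. These are not 11 separate checks. Settings that change only the detection filter or the outlier flags left the median at 0.10. The authors' normalized values gave 0.079, as quantile normalization did. Without a detection filter the median of all genes moved to 0.24, and the median of the 10 genes was then below it. The mean of the THOC2 probes stayed below 0 and was -0.51 with normexp and -1.42 for its brightest probe. Normexp moved the list medians to -0.037 (other AP-1 and bZIP genes), -0.021 (other immediate early genes), 0.095 (kinases and inducing factors) and 0.082 (AP-1 targets), and the cause was not tested. With 1 spot per probe and no replicate culture, no difference of a member can be assigned to the siRNA, and the signals of NR4A2 and FOSL2 lie close to background.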
